A study of Mus musculus with 2 samples.

Results

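Metallothioneins and antioxidant enzymes were followed in RNA-seq of mouse optic nerve, as 10 genes picked by symbol out of the 23950 symbols in the deposited tables. They are the metallothioneins Mt1, Mt2 and Mt3, the glutathione transferases Gstm1 and Gstm5, the peroxide-removing enzymes Prdx6, Cat and Gpx3, the extracellular superoxide dismutase Sod3 and the quinone reductase Nqo1. Each symbol had 1 entry in each table, and all 10 passed the minimum level for comparison. Nerves were taken at postnatal day 12 from mice of mixed strain background. The control library came from animals of genotype Hdac3f/+; Olig1-cre and the Hdac3 cKO library from animals of genotype Hdac3f/f; Olig1-cre. Both groups therefore carry the Cre recombinase, which is driven from Olig1, a transcription factor gene of the oligodendrocyte lineage, and the control group carries 1 floxed Hdac3 allele. Each group is 1 library, no source used here gives the number of animals behind it, and the tissue was whole nerve, so a value does not show which cells a transcript came from.

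Metallothioneins are small, cysteine-rich proteins that bind zinc and copper and also react with oxidants. Mt1 and Mt2 are made in many tissues, are transcribed in response to metals, glucocorticoids and inflammatory signals, and in the nervous system are found mainly in astrocytes, while Mt3 is the form known mostly from brain. The antioxidant enzymes work in series: superoxide dismutases turn superoxide into hydrogen peroxide, catalase, peroxiredoxins and glutathione peroxidases remove peroxides, and glutathione transferases and quinone reductases detoxify reactive organic molecules. Several of them are known targets of NRF2, a transcription factor released from KEAP1 under oxidative stress.

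Levels are FPKM, read fragments scaled to transcript length and to the size of the library, as the authors deposited them together with an interval for each value. A difference is log2 of cKO FPKM plus 1 over control FPKM plus 1. A gene was counted higher or lower in the cKO library when it differed at least 2-fold (a log2 difference of 1) and the deposited intervals of the libraries were separate. No replicate check and no p-value can be had from single libraries. Each count and difference describes these libraries and not the genotypes.

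The metallothioneins were the most abundant of the 10 genes, and Mt2 and Mt3 had the largest differences. All 3 metallothioneins were more than 2-fold higher in the cKO library, as were Nqo1 and Gstm1. Prdx6 and Sod3 were just short of 2-fold higher, Gstm5 was higher by less, and Cat and Gpx3 were slightly lower. Thus 5 of the 10 genes were counted higher and 0 lower. The count of 5 depends on the setting, with 2 genes counted under the same sum and 3 with a pseudocount of 5 or after centring on genes of similar transcript length. Over all 14154 genes tested, 4.73% were counted higher and 4.51% lower. The median difference of the 10 genes was 0.99 on the log2 scale, with a range of -0.20 to 1.64, against a median of 0.12 for all tested genes, of which 61.4% had a difference above 0.

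Facts of the libraries as a whole set limits on these values. Hdac3 itself was at 36.4 FPKM in the control library (interval 31.4 to 35.6) and at 38.04 FPKM in the cKO library (interval 33.4 to 36.0), a log2 difference of 0.06. The whole-gene value does not show which exons were read, so it leaves the genotype labels unchecked, and the libraries are named here by their labels. The files do not give the depth. Over 8770 genes at 5 FPKM or more in both libraries, the median half-width of an interval was 7.53% of its midpoint in control and 4.23% in cKO, so values of the cKO library carry the narrower deposited error. The split between higher and lower depends on scaling: 669 genes were higher and 638 lower on the deposited scale (51.2% higher), 439 and 761 after centring on the median (36.6%), and 215 and 960 after scaling to the same sum (18.3%), which moves the median of all genes to -0.16. Entries spanning under 300 bases held 11.3% of the summed FPKM in control and 25.3% in cKO.

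**Figure D1:**
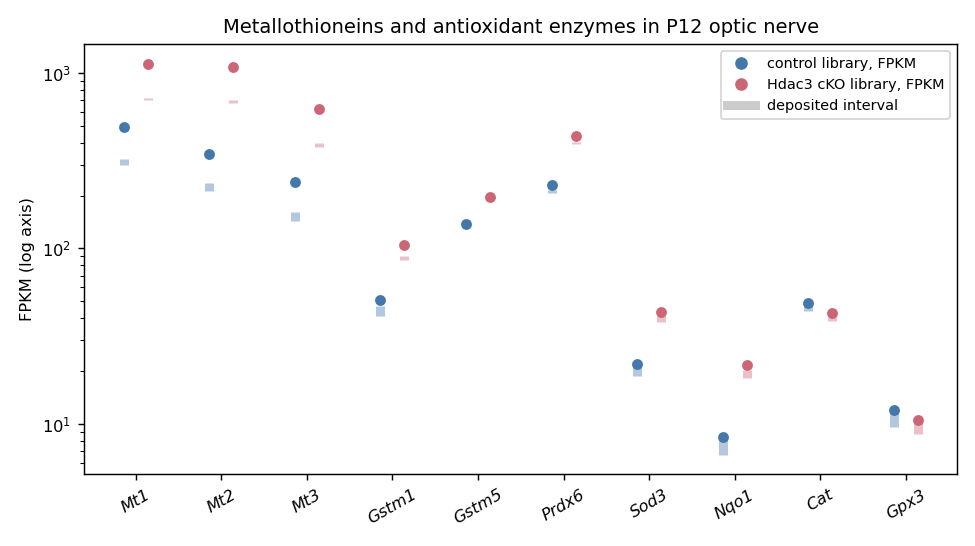
FPKM of the 10 genes on a log axis in the control library (blue) and the Hdac3 cKO library (red), with the deposited interval of each value as a pale bar. Mt1, Mt2 and Mt3 are the highest of the 10 genes in the cKO library and all 6 of their values lie above their own intervals, while the points of Cat and Gpx3 nearly coincide between libraries.

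Mt1 was at 489 FPKM in the control library and 1129 FPKM in the cKO library, 2.31 times as high, and its deposited intervals were 298 to 322 and 698 to 719. The log2 difference was 1.20, and the interval bounds give 1.11 to 1.27. Only 104 symbols had a higher FPKM than Mt1 in control, and only 31 in cKO.

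Mt2 had the largest difference of the 10 genes. It was at 344 FPKM in control (interval 212 to 234) and 1077 FPKM in cKO (interval 676 to 697), 3.13 times as high, with a log2 difference of 1.64 and 1.52 to 1.71 from the interval bounds. Of all tested genes, 204 had a larger difference. The level of Mt2 was 0.704 of that of Mt1 in control and 0.954 in cKO, so the gap between these neighbouring genes was smaller in the cKO library.

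Mt3 was at 240.4 FPKM in control (interval 144 to 161) and 620 FPKM in cKO (interval 380.1 to 396), 2.58 times as high, with a log2 difference of 1.36. Mt3 thus moved in the same direction as the widely expressed forms, and its level relative to Mt1 was 0.491 in control and 0.549 in cKO. Together the 3 genes made up 1074 FPKM in control and 2826 FPKM in cKO, or 0.244% and 0.510% of all FPKM summed over symbols.

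The metallothionein genes lie side by side on chromosome 8 (mm9 build of the files): Mt3 at 96676507 to 96678048, Mt2 at 96696518 to 96697467 and Mt1 at 96702989 to 96704227, with 5521 bases between Mt2 and Mt1. The fourth gene of the cluster, Mt4, known from stratified epithelium, was listed at 0 FPKM in both libraries and was not compared. No entry of another gene overlaps Mt1, Mt2 or Mt3.

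Because the 3 expressed neighbours were all higher in the cKO library, their promoter sequences are shown, as the 250 bases before the annotated start, 5′ to 3′, from RefSeq on build GRCm38.p6, which is not the build of the files. Capitals mark matches on either strand to the core of the metal response element, searched as TGCACNC and TGCGCNC, the site known to be bound by the zinc-sensing factor MTF1. The windows are chr8:94178839-94179088 for Mt1, chr8:94172368-94172617 for Mt2 and chr8:94152357-94152606 for Mt3, all on the plus strand.
Mt1: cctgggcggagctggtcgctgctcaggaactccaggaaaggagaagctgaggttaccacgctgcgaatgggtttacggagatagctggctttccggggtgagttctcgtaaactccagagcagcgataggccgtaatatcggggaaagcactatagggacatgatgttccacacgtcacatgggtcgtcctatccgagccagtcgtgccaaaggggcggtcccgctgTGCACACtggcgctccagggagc
Mt2: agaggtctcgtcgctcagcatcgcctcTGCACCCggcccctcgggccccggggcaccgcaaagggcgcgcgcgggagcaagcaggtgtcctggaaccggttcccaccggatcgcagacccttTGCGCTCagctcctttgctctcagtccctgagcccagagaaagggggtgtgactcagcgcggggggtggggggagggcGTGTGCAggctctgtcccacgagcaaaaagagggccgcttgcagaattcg
Mt3: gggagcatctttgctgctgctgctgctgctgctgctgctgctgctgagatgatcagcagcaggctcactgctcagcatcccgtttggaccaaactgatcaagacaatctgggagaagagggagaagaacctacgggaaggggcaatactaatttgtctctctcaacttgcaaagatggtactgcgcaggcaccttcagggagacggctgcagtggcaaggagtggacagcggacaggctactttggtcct

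In these windows the core matched 1 time for Mt1, 3 times for Mt2 and 0 times for Mt3. With the 50 bases after the start included, the matches came to 3 for Mt1, 4 for Mt2 and 1 for Mt3, with matches that overlap each other counted separately. Of these, 2 for Mt1, 1 for Mt2 and 1 for Mt3 reached or passed the start, so the counts depend on where the start is annotated. The metal response core also matched 1 time for Gstm5 and 1 time in each window of Gstm1. It matched 0 times for Nqo1, Cat and Gpx3. Of 32851 RefSeq windows of the same 300 bases, 25.7% held at least 1 match, 1.97% at least 3 and 0.517% at least 4. A relation between the number of matches and the difference was not tested. The core of the antioxidant response element, TGACNNNGC on either strand, matched 1 time for Mt2 and 1 time for Gstm5, and 0 times in the other windows found, those of Mt1, Mt3, Gstm1, Nqo1, Cat and Gpx3. At least 1 match was held by 12.4% of all windows. In all, 8 of the 10 genes had a window in the table. A match of letters is a description and not a bound site. Sites outside the windows were not searched, so 0 matches does not mean that a gene lacks a site.

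**Figure D2:**
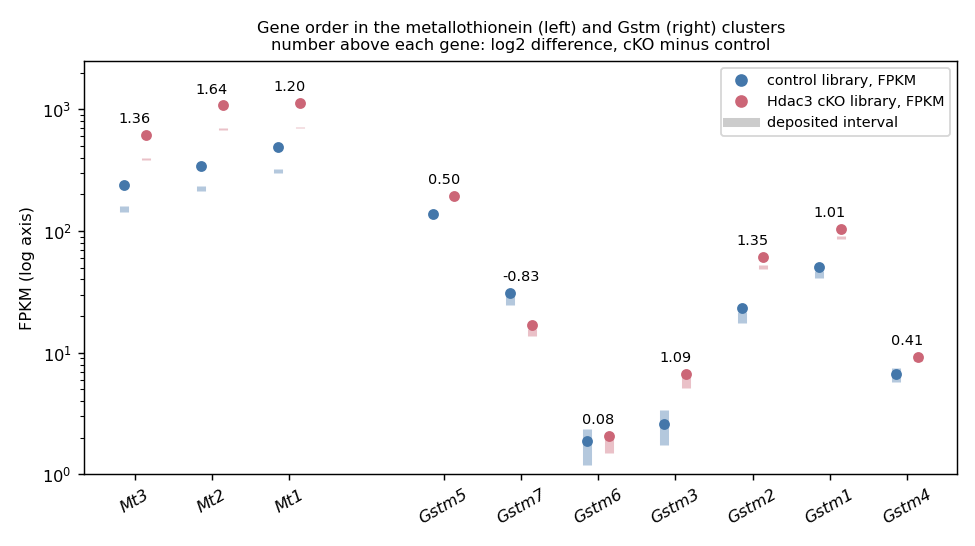
FPKM on a log axis of genes in chromosomal order within the metallothionein cluster (Mt4, listed at 0, is left out) and the Gstm cluster, with control in blue, Hdac3 cKO in red and deposited intervals as pale bars. All 3 metallothioneins shown are higher in the cKO library, while in the Gstm cluster Gstm3, Gstm2 and Gstm1 are counted higher and Gstm7, with a log2 difference of -0.83, lies in the other direction.

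Glutathione transferases of the mu class, which join glutathione to electrophilic molecules, differed from gene to gene within their cluster. Gstm1 was at 51.0 FPKM in control (interval 41.2 to 47.2) and 104 FPKM in cKO (interval 86.2 to 90.8), 2.04 times as high, with a log2 difference of 1.01. This is just past the 2-fold threshold, and Gstm1 fell short of it in 7 of 13 other settings, with differences from 0.68 after scaling to the same sum to 0.98 with the interval midpoints in place of the FPKM. Among the settings that can change its difference, it stayed past the threshold only with a pseudocount of 0.1. Of the 1240 stretches of 50 bases in the Gstm1 transcript, 23.1% also occur in transcripts of other genes, most often Gstm2-ps1 and Gstm3, so its value is uncertain where reads could be split among copies.

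Gstm5 is the most abundant transferase among the 10 genes. It was at 138 FPKM in control (interval 132 to 145) and 195 FPKM in cKO (interval 192 to 202), 1.42 times as high, with a log2 difference of 0.50 that was not counted. It is the only one of the 10 genes whose value lies inside its interval in both libraries. Gstm5 overlaps the entry 4933431E20Rik by 360 bases, whose values were 16.3 FPKM in control and 11.7 FPKM in cKO. No source used here says whether fragments were counted by strand, so in the overlap the genes cannot be told apart.

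The Gstm cluster spans chromosome 3 from 107698772 to 107847777 (mm9), in the order Gstm5, Gstm7, Gstm6, Gstm3, Gstm2, Gstm1 and Gstm4. Gstm2 was at 23.4 FPKM in control and 61.5 FPKM in cKO (log2 1.35), and Gstm3 at 2.61 and 6.68 FPKM (log2 1.09), and both were counted higher. Gstm7 was at 31.0 FPKM in control (interval 24.8 to 29.6) and 17.0 FPKM in cKO (interval 13.8 to 15.6), a log2 difference of -0.83 with separate intervals. Gstm4 (6.65 and 9.19 FPKM, log2 0.41) and Gstm6 (1.89 and 2.06 FPKM, log2 0.08) were not counted. Genes of the cluster thus differed in both directions, and the cluster sum was 255 FPKM in control and 396 FPKM in cKO.

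Nqo1, which reduces quinones and is a classic NRF2 target, was the least abundant of the 10 genes in control. It was at 8.46 FPKM in control (interval 6.67 to 8.63) and 21.6 FPKM in cKO (interval 18.2 to 20.2), 2.56 times as high, with a log2 difference of 1.26. Its control interval has a half-width of 12.8% of the midpoint, the widest among the 10 genes in either library. The interval bounds give a log2 difference of 0.99 to 1.47. They hold no variation between animals, and the cKO FPKM of Nqo1 lies above its own interval.

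Prdx6, a peroxiredoxin that reduces phospholipid hydroperoxides and also acts as a phospholipase, was at 229 FPKM in control (interval 206 to 216) and 436 FPKM in cKO (interval 395 to 402). It was 1.90 times as high in cKO, a log2 difference of 0.92, so it was not counted although the intervals lie far apart. Prdx6 is an abundant transcript of the nerve, with 268 symbols above it in control and 149 in cKO. It shares 0.299% of its 50-base stretches with Prdx6b.

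Sod3, the secreted copper and zinc superoxide dismutase of the extracellular matrix, was at 21.9 FPKM in control (interval 18.7 to 21.96) and 43.4 FPKM in cKO (interval 38.3 to 41.1). This is 1.99 times as high, with a log2 difference of 0.96 that missed the threshold by little and with separate intervals. Gstm1 lay just inside the threshold (1.01) and Sod3 just outside it (0.96). At a threshold of 1.5-fold, 7 of the 10 genes were counted higher, as were 2262 of all 14154 genes tested.

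Cat encodes catalase, the peroxisomal enzyme that breaks down hydrogen peroxide. It was at 49.1 FPKM in control (interval 43.9 to 48.6) and 42.8 FPKM in cKO (interval 38.6 to 40.8), a log2 difference of -0.20. Gpx3 encodes the secreted glutathione peroxidase. It was at 12.0 FPKM in control (interval 9.60 to 12.2) and 10.6 FPKM in cKO (interval 8.75 to 10.3), a log2 difference of -0.17. Cat and Gpx3 were the only 2 of the 10 genes with a difference below 0, and Gpx3 was the only one whose intervals overlapped.

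The order of the levels by FPKM changed little between libraries. In control it was Mt1, Mt2, Mt3, Prdx6, Gstm5, Gstm1, Cat, Sod3, Gpx3 and Nqo1. Mt3 and Prdx6 were neighbours in control at 240.4 and 229 FPKM, and their intervals, 144 to 161 and 206 to 216, would place them the other way round. Gstm1 and Cat were at 51.0 and 49.1 FPKM in control with overlapping intervals. In cKO, Mt1 and Mt2 were at 1129 and 1077 FPKM with intervals that were separate by little. Sod3 and Cat were at 43.4 and 42.8 FPKM with overlapping intervals, in cKO, and Nqo1 lay above Gpx3.

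Many of these values lie outside their own intervals, and the short genes lie furthest out. In control 6 of the 10 values lay above the upper bound and 4 inside, and in cKO 9 lay above and 1 inside. Mt1, Mt2 and Mt3, with transcripts of 549, 511 and 536 bases, had an FPKM of 1.58, 1.54 and 1.58 times the interval midpoint in control and 1.59, 1.57 and 1.60 times in cKO. For Sod3, with the longest transcript of the 10 genes at 3738 bases, the value was 1.07 times the midpoint in control and 1.09 times in cKO. Gstm5, at 945 bases, departs from this order, with 0.996 and 0.990.

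The same held across genes. Among 110 genes with a transcript under 600 bases and at least 5 FPKM in both libraries, the median ratio of FPKM to midpoint was 1.58 in control and 1.62 in cKO, and 80.9% and 82.7% of values lay above their intervals. Among 2590 genes of 4000 bases or more, the ratios were 1.003 and 1.01, and 3.90% and 18.8% lay above. The absolute level of a metallothionein, and its rank against longer genes, therefore depends on whether the FPKM or the interval is read. The ratio between libraries hardly does: from the midpoints, the log2 differences were 1.19 for Mt1, 1.62 for Mt2 and 1.34 for Mt3.

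Short transcripts as a class also had larger differences. The median log2 difference was 0.31 for the genes under 600 bases, with a middle 50% of 0.10 to 0.60, and 0.04 for the genes of 4000 bases or more. Of 721 tested genes with a transcript under 1000 bases, 10.1% were counted higher and 2.91% lower. When each of the 10 genes was centred on the median of its own length range, Mt2 (1.34), Mt3 (1.06) and Nqo1 (1.12) were still counted higher, while Mt1 (0.90) and Gstm1 (0.87) were not. The part of transcript length in the differences was not tested further.

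**Figure D3:**
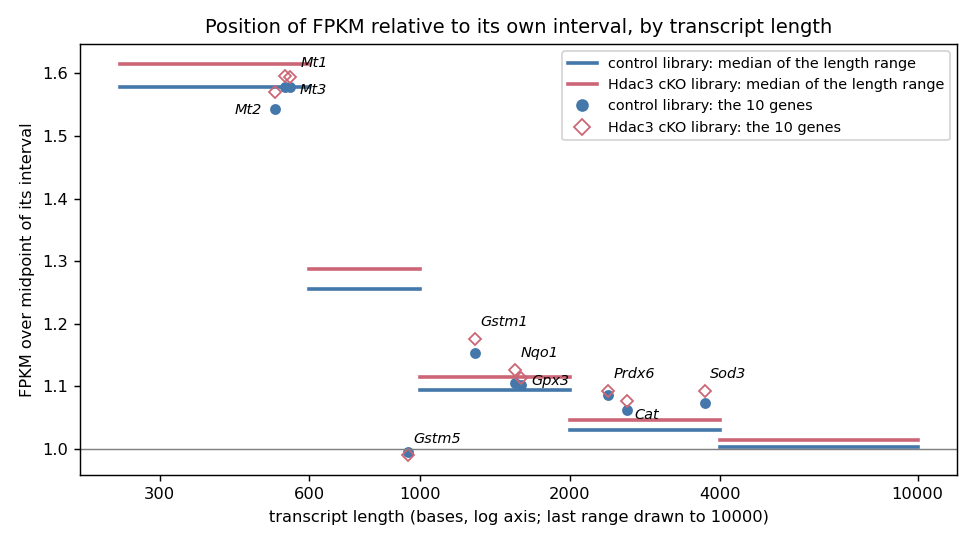
FPKM divided by the midpoint of its deposited interval, against transcript length on a log axis, for the 10 genes (points) and as the median of genes in 5 length ranges (lines), with control in blue and Hdac3 cKO in red. The ratio falls from 1.58 and 1.62 under 600 bases to 1.003 and 1.01 at 4000 bases or more, the metallothioneins sit near the lines of their range, and Gstm5 sits below its range near 1.

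The direction of each of the 10 genes was the same under all 13 other settings tried, and the size was not. Some settings could change neither. Summing entries, dropping the interval condition, a 1.5-fold threshold and other minimum levels leave each difference of these genes as it was. Mt2 stayed between 1.31 and 1.65 and Mt3 between 1.03 and 1.37, and these 2 were counted higher in every setting. Mt1 ranged from 0.87 to 1.21 and was not counted after scaling to the same sum or after centring on genes of similar length. Gstm1 ranged from 0.68 to 1.03 and was not counted in 7 of the 13. Among the settings that can change its difference, it was counted only with a pseudocount of 0.1. Nqo1 ranged from 0.94 to 1.34 and was not counted after scaling to the same sum or with a pseudocount of 5. With the sum taken only over entries of at least 300 bases, Mt1 (1.12), Mt2 (1.55), Mt3 (1.28) and Nqo1 (1.17) were counted higher.

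**Figure D4:**
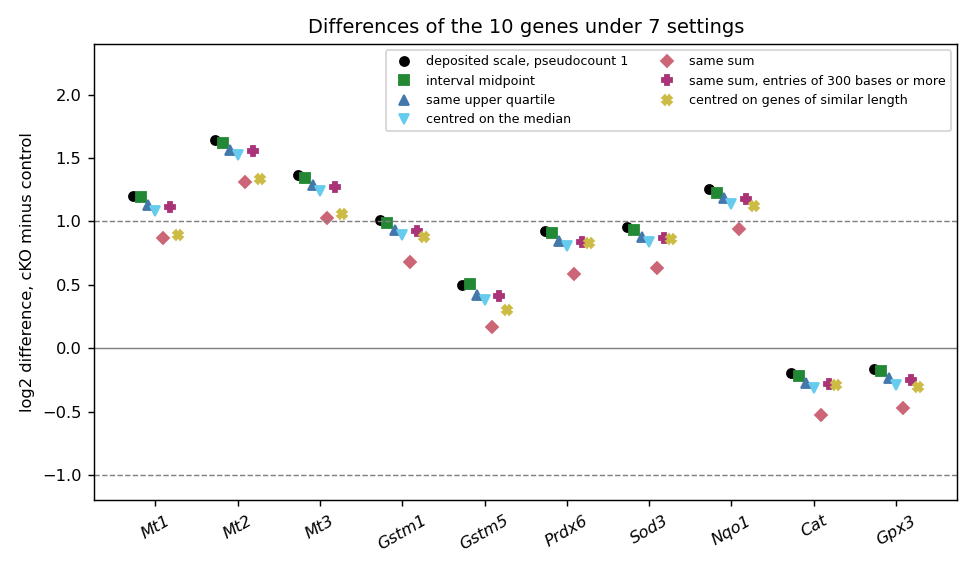
Log2 difference (cKO minus control) of the 10 genes under 7 settings, with dashed lines at the 2-fold threshold. Mt2 and Mt3 lie above the upper line in all 7, Gstm1 crosses it, and Cat and Gpx3 stay below 0.

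Related enzyme families were compared by the same rule, with the 4.73% higher and 4.51% lower of all tested genes as background. Of 18 other glutathione transferases tested, 7 were counted higher and 0 lower, with a median log2 difference of 0.53. Gstt1 was at 19.3 FPKM in control and 52.3 FPKM in cKO (log2 1.40), and the membrane-bound Mgst1 at 65.7 and 139 FPKM (log2 1.07). Gsta4, which handles the lipid peroxidation product hydroxynonenal, was at 44.8 and 100.2 FPKM (log2 1.14). Gstp1, the most abundant of the list in control, was at 128 and 114 FPKM (log2 -0.17). Gstm3, Gstt2 and Gstt3 were also counted higher. The count of 7 became 4 after centring on the median or with a pseudocount of 5, and 2 after scaling to the same sum, where Gstm7 was counted lower.

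Of the 4 other glutathione peroxidases tested, 2 were counted higher, both of them enzymes of the endoplasmic reticulum. Gpx7 was at 23.8 FPKM in control and 50.7 FPKM in cKO (log2 1.06), and Gpx8 at 65.7 and 134 FPKM (log2 1.02). The widely expressed Gpx1 (121 and 221 FPKM, log2 0.86) and Gpx4, which protects membrane lipids (185 and 249 FPKM, log2 0.42), had smaller differences. All 4 differences were above 0, whereas that of Gpx3 was below. Gpx8 was not counted with the interval midpoints, and neither Gpx7 nor Gpx8 with a pseudocount of 5 or under any of the 3 scalings (same upper quartile, median and same sum).

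Peroxiredoxins other than Prdx6 and the thioredoxin system differed less, with 2 of 19 counted higher, 0 lower and a median of 0.32. Prdx2 was at 289 FPKM in control and 279 FPKM in cKO (log2 -0.05) and Prdx1 at 183 and 178 FPKM (log2 -0.04). The 2 counted higher were Txnip, an inhibitor of thioredoxin, at 78.3 and 189 FPKM (log2 1.26), and the glutaredoxin Glrx at 11.3 and 24.0 FPKM (log2 1.03). Glrx was not counted in any of these 5 settings, and Txnip was lost after scaling to the same sum. The intracellular dismutases were not counted: Sod1 was at 208 and 281 FPKM (log2 0.43), the mitochondrial Sod2 at 15.6 and 14.8 FPKM (log2 -0.07), and the copper chaperone Ccs at 28.1 and 36.2 FPKM (log2 0.36).

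Genes of glutathione synthesis and recycling moved in both directions, with 2 of 12 counted higher, 3 lower and a median of 0.02. Gss, which completes glutathione synthesis, was at 32.6 FPKM in control and 11.8 FPKM in cKO (log2 -1.40). Ggct, an enzyme of glutathione breakdown, was at 10.2 and 2.46 FPKM (log2 -1.69), and Ggt7 was at 15.9 and 5.46 FPKM (log2 -1.38). Ggt5 (log2 1.22) and Anpep (log2 1.19), which is also on the mural cell list, were counted higher. The enzyme that sets the rate of synthesis has the subunits Gclc, at 15.2 and 16.9 FPKM (log2 0.14), and Gclm, at 16.2 and 14.9 FPKM (log2 -0.11), neither of which was counted. The cystine importer subunits Slc7a11 (35.1 and 41.0 FPKM, log2 0.22) and Slc3a2 (66.3 and 89.1 FPKM, log2 0.42) were not counted either. Neither Ggt5 nor Anpep was counted with a pseudocount of 5 or after scaling to the same sum.

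Nfe2l2, the gene for NRF2, was at 20.9 FPKM in control (interval 18.3 to 21.3) and 45.3 FPKM in cKO (interval 40.8 to 43.1), a log2 difference of 1.08, and was the only 1 of 10 NRF2 regulators counted. It was not counted after centring on the median, after scaling to the same sum or with a pseudocount of 5. Its inhibitor Keap1 was at 13.0 and 13.9 FPKM (log2 0.09). Sqstm1, an adaptor that binds KEAP1, was at 94.7 and 125 FPKM (log2 0.40), and the related factor Nfe2l1 at 54.9 and 81.4 FPKM (log2 0.56). Of 24 NRF2 target genes, a list without Nqo1, 3 were counted higher (Gsta4, Blvrb and Aldh3a1) and 1 lower, with a median of 0.18, and of the 3 higher, 2 were left after centring on the median or scaling to the same upper quartile, 1 with a pseudocount of 5 and 0 after scaling to the same sum. The ferritin genes, its most abundant members, differed little: Fth1 was at 1355 and 1377 FPKM (log2 0.02) and Ftl1 at 746 and 869 FPKM (log2 0.22). Hmox1, the heme oxygenase induced by NRF2, was at 8.71 and 13.6 FPKM (log2 0.59), and Taldo1, of the pentose phosphate pathway, was at 266 and 96.5 FPKM (log2 -1.45) and was counted lower.

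Among genes of zinc handling and metal response, 2 of 17 tested were counted higher and 0 lower, with a median of 0.25. These were the zinc importer Slc39a12, at 54.5 FPKM in control and 111 FPKM in cKO (log2 1.01), and Cp, the copper-carrying ferroxidase ceruloplasmin, at 32.3 and 71.4 FPKM (log2 1.12). The zinc importer Slc39a1 was at 87.5 and 140.0 FPKM (log2 0.67). Mtf1, the zinc-sensing activator of metallothionein genes, was at 6.52 and 3.24 FPKM (log2 -0.83), and the zinc exporter Slc30a1, another of its known targets, at 9.74 and 7.25 FPKM (log2 -0.38). None of these 3 was counted. By FPKM alone, Mtf1 was 2.01 times as high in control, with separate intervals (6.17 to 6.87 in control and 3.07 to 3.43 in cKO). It fell short of the threshold through the pseudocount of 1. The part of metal response in the differences of the metallothioneins was not tested. Slc39a12 was not counted with the interval midpoints or in any of the other 4 settings, Cp was lost after scaling to the same sum, and Mtf1 was counted lower there.

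Glucocorticoid response genes were examined because metallothioneins also respond to these hormones. Of 16 tested, 3 were counted higher and 0 lower, 14 differences were above 0, and the median was 0.75. Tsc22d3 was at 59.8 FPKM in control and 173 FPKM in cKO (log2 1.51), Cdkn1a, a cell cycle inhibitor that is also a p53 target, at 9.94 and 33.6 FPKM (log2 1.66), and Sult1a1 at 20.9 and 56.8 FPKM (log2 1.40). Fkbp5 was at 10.6 and 18.7 FPKM (log2 0.76), whereas Sgk1 was at 47.2 and 35.2 FPKM (log2 -0.41) and Ddit4 at 74.9 and 71.9 FPKM (log2 -0.06).

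Of 5 other quinone, carbonyl and aldehyde reductases tested, 0 were counted in either direction, with a median of 0.44, and of 5 aldehyde dehydrogenases on the same list, 1 was counted higher. This was Aldh1a1, the cytosolic enzyme that also makes retinoic acid, at 82.5 FPKM in control and 195 FPKM in cKO (log2 1.23). Aldh1a1 was not counted after scaling to the same sum. The mitochondrial Aldh2 was at 57.8 and 102 FPKM (log2 0.81), and the reductase Cyb5r3 at 78.6 and 107 FPKM (log2 0.44). Of 10 enzymes that produce oxidants, 1 was counted higher, with a median of 0.45. This was Cyba, a subunit of the phagocyte NADPH oxidase, at 23.2 and 47.4 FPKM (log2 1.003), and its catalytic partner Cybb was at 1.28 and 2.98 FPKM (log2 0.80). Cyba was not counted with the interval midpoints or in any of the other 4 settings.

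Markers of several cell types of the nerve differed in the same direction as the metallothioneins. Of 17 astrocyte markers tested, 5 were counted higher and 0 lower, with a median of 0.79, and the list summed to 3166.5 FPKM in control and 5574 FPKM in cKO without Gfap, which was listed at 0 in cKO because its status there marks too many fragments. Of 12 meningeal fibroblast markers, 10 were counted higher, with a median of 1.27 and sums of 2130 and 5000.0 FPKM. Mural cell markers (2 of 10 higher, median 0.85, sums 303 and 547 FPKM), endothelial markers (0 of 12, median 0.55, sums 221 and 309 FPKM) and microglia markers (0 of 12, median 0.51, sums 447 and 660 FPKM) had medians above 0 as well. No marker of these 5 lists was listed at 0 in both libraries. Of the 4 red blood cell genes tested, 2 were counted higher, Hba-a1 (40.9 and 143 FPKM) and Hbb-b1 (43.8 and 121 FPKM), although globin genes have near-identical copies. The copy Hba-a2, whose entry overlaps that of Hba-a1, was at 5.30 and 3.46 FPKM (log2 -0.50) and was not counted. After scaling to the same sum, the counts higher were 2 of the astrocyte markers, 4 of the meningeal fibroblast markers and 0 of the mural cell markers. With a pseudocount of 5, 0 mural cell markers were counted as well.

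Markers of myelinating oligodendrocytes lay in the other direction, with 12 of 14 counted lower, a median of -2.63 and sums of 13862 FPKM in control and 2461 FPKM in cKO. Of 8 precursor markers, 2 were counted lower, Gpr17 and Neu4, with a median of -0.57. Differences of 6 of the 8 were below 0, and those of Pdgfra (log2 0.13) and Ptprz1 (log2 0.12) were above 0. The ratio of cKO to control was 2.63 for the summed metallothionein cluster, 1.76 for the summed astrocyte markers and 2.35 for the summed meningeal fibroblast markers. For the other summed lists it was 2.96 (red blood cell genes), 1.80 (mural cell), 1.48 (microglia) and 1.40 (endothelial markers). In whole nerve, a change in the number of cells of a type and a change in RNA per cell cannot be told apart. The part of cell composition in the differences of the 10 genes was not tested.

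**Figure D5:**
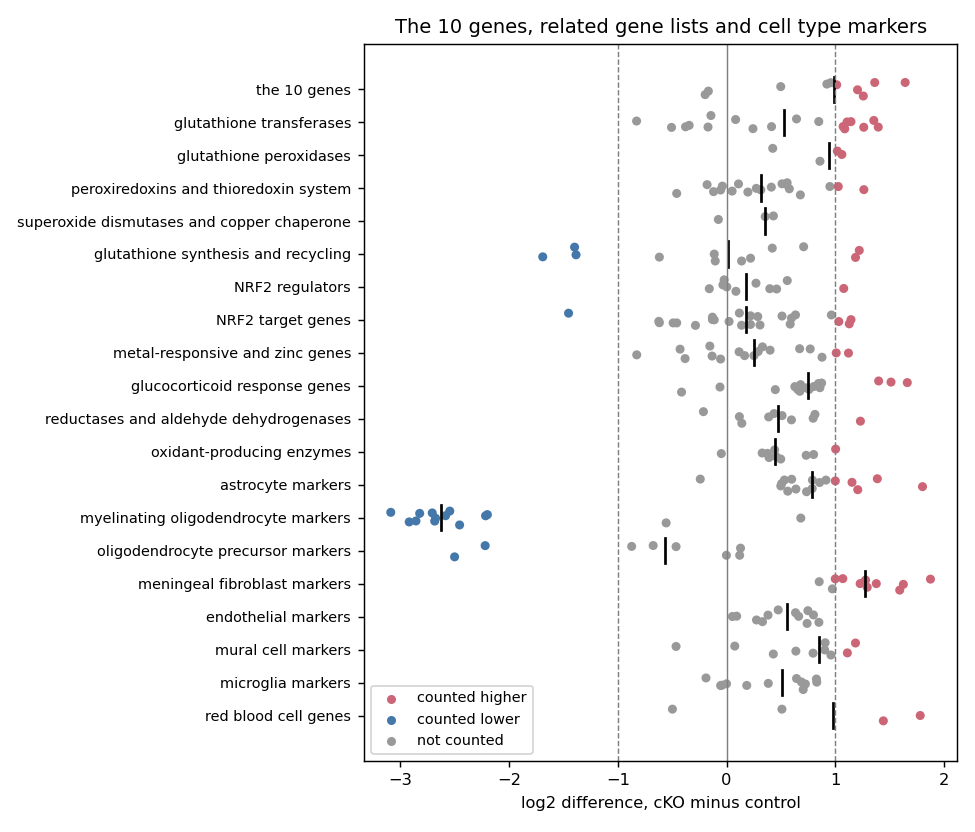
Log2 difference (cKO minus control) of each tested gene, by list, with red points counted higher, blue points counted lower, grey points not counted, black bars at the list medians and dashed lines at the 2-fold threshold. The median of the 10 genes (0.99) lies between those of the astrocyte markers (0.79) and the meningeal fibroblast markers (1.27), while the myelinating oligodendrocyte markers lie far to the left (-2.63). The medians of red blood cell genes (0.98), glutathione peroxidases (0.94) and mural cell markers (0.85) lie nearer to that of the 10 genes.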

How the data were processed

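RNA-seq was measured in optic nerve of control and Hdac3 cKO mice, 1 library each. The authors deposited FPKM per gene with interval bounds and a status, per the file headers. CASAVA, TopHat, Cufflinks and the mm9 build are named in the submitters' processing notes. No source used here gives their versions, the annotation or the depth. Libraries were made with a TruSeq RNA kit from Trizol-extracted total RNA, per the labels' protocols.

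Entries were matched by symbol, start site group and locus, and the entry with the highest summed FPKM stood for a symbol. Tested genes carried the status OK in each library and reached an FPKM of 1 in at least 1 of them. Differences used a pseudocount of 1 and no further scaling, and the log2 scale understates changes of low genes. Other settings numbered 11, among them the interval midpoint, and 2 more (the sum without entries under 300 bases, and centring within transcript length ranges) were chosen after seeing the data, as were the background of genes under 1000 bases, the settings applied to the lists and the split of reductases from aldehyde dehydrogenases. Transcript lengths are the longest transcript tied to a curated RefSeq messenger RNA in GENCODE M21, found for 89.5% of tested genes; promoter windows are from RefSeq. The error rate of the calling rule in these libraries was not tested. Software was Python 3.11.15, numpy 2.4.6, pandas 2.3.3 and matplotlib 3.10.9.

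The 10 genes and the 19 lists of related genes and cell type markers were chosen with earlier results of these data known. Up to 4 genes per list were to be named, 2 by mean FPKM and 2 by the size of the difference; most cell type lists are given by their counts and sums. For 1 gene that this rule names, the value is not reported here. Other genes of the lists, among them those counted but outside this rule and Gclc, Gclm, Keap1, Hmox1, Mtf1, Slc30a1, Sod2, Fkbp5, Sgk1 and Pdgfra, were named after their values were seen. The list genes Akr1a4 and Hbb-b2 matched no entry under these symbols. With 2 libraries, likeness between gene patterns was not measured.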

Additional observations from a re-analysis of the deposited data

How the results depend on the processing

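Of the 10 genes, the count of those higher was 5 as reported, between 4 and 7 in 10 of 13 other settings, 3 with a pseudocount of 5, 2 after scaling to the same sum and 3 after centring on genes of similar transcript length. The count of those lower was 0 throughout. Summing entries or changing the minimum level could not alter these counts, since each gene had 1 entry and exceeded 5 FPKM. Over all tested genes, 1156 were counted higher with a pseudocount of 0.1, 282 higher and 339 lower with a pseudocount of 5, 439 higher after centring on the median, 215 higher and 960 lower after scaling to the same sum, and 2262 higher and 1253 lower at 1.5-fold. Fewer higher calls under the same sum follow from its construction, which multiplies the cKO library by 0.793. No paired analysis was possible because each group has 1 library. No library could be left out, depth is unknown, and the deposited intervals hold no variation between animals.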
